A study of Mus musculus with 4 samples.

Results

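The histone genes of the 4 mouse histone gene clusters were examined, in 2 differentiation libraries and 2 control libraries of mouse spermatogonial stem cells, from which sperm production is sustained. The genes are the protein-coding features of the deposited table whose symbol begins with Hist1h, Hist2h, Hist3h or Hist4h, and 65 of the 31600 features in the table meet that rule. By type they are 6 H1, 17 H2A, 18 H2B, 11 H3 and 13 H4 genes, and 3 of them, Hist1h1t, Hist1h2ba and Hist1h2aa, encode testis variants. All 65 reached the mean of 0.5 FPKM (fragments per feature, corrected for exonic length and for depth) needed for testing, so no gene of the group was left out. RNA had been extracted from the cells and depleted of ribosomal RNA rather than selected for poly(A) tails. The differentiation libraries carry the label Differentiation in the genotype field and the control libraries the label WT, and both groups are labelled as spermatogonial stem cells of the mouse. How long and by what means the cells had been differentiated was not stated in the labels. Separate cultures or animals are not stated for the libraries of a group, so the p-values measure the spread between these libraries, which may be technical.

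Core histones H2A, H2B, H3 and H4 wrap DNA into nucleosomes, and the linker histone H1 binds the DNA between them. Most genes of these clusters are replication-dependent: they are transcribed in S phase, have no introns, and give mRNAs that end in a conserved stem-loop instead of a poly(A) tail. Male germ cells also make testis variants, in particular the linker histone H1T of meiotic spermatocytes and the H2B and H2A variants TH2B and TH2A, which are later removed together with most other histones when spermatids compact their DNA with transition proteins and protamines.

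Of the 65 histone genes, 39 fell and 11 rose in differentiation, and 15 were not called (limma, Benjamini-Hochberg adjusted p under 0.05 over 23138 features). The shares are 60.0% lower and 16.9% higher, beside 27.0% lower and 29.6% higher among all features tested. The median log2 fold change of the 65 genes was -0.51, beside 0.01 over all features tested. The 3 testis variants rose, led by the linker histone gene Hist1h1t with a 17.4-fold higher mean FPKM, while 10 of 11 H3 genes fell. Both differentiation libraries lay below both control libraries in 46 genes and above them in 12, and the groups overlapped in 7. The share of all tested features without overlap was 39.1% in the lower and 40.9% in the higher direction.

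**Figure D1:**
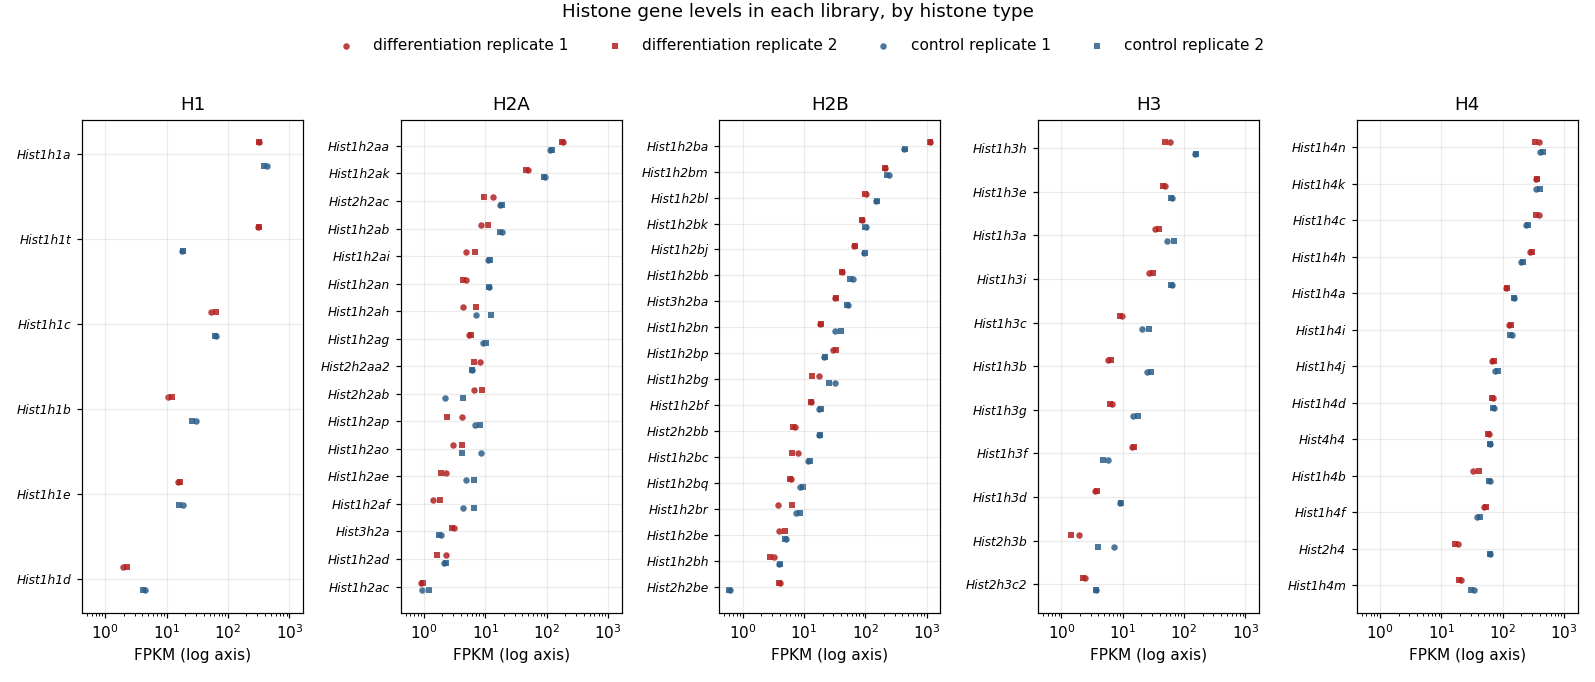
FPKM of each of the 65 histone genes (log axis) in the 2 differentiation libraries (red) and the 2 control libraries (blue), in 1 panel for each histone type, with genes ordered by mean FPKM. Hist1h1t stands at 306.5 and 325.8 FPKM in differentiation, against 17.75 and 18.53 FPKM in control, and in most other rows the red points lie left of the blue ones.

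The sequences that identify these genes are shown first. All 54 genes of the Hist1 cluster lie on chromosome 13 of GRCm38, the 8 of Hist2 on chromosome 3, the 2 of Hist3 on chromosome 11 and Hist4h4 on chromosome 6 (GENCODE M21). A histone stem-loop was found after the coding end in the annotated transcripts of 44 genes. In the other 21 the transcripts often stop at the stop codon, as they do in Hist1h2ba and Hist1h2aa, and there the search says nothing about their RNA. Some of the 21 have a longer annotation in which no stem-loop was found. Among these are Hist2h2be (2195 bases after the coding end), Hist1h2br (up to 1806), Hist1h2bq (up to 1611) and Hist1h2bc (745). Stem-loops of genes that rose and of genes that fell are set side by side here, with the stem and loop in capitals and the flanking bases in lower case, 5′ to 3′ along the mRNA:
Hist1h1t: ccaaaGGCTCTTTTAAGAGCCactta
Hist1h3f: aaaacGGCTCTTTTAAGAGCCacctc
Hist1h4c: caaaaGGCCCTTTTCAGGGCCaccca
Hist1h3b: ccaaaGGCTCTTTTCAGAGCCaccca
Hist2h4: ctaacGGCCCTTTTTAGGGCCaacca

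The most frequent stem-loop, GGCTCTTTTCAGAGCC, stood in 24 genes, namely 3 H1, 9 H2A, 8 H2B and 4 H3 genes. The form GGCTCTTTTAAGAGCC of Hist1h1t and Hist1h3f stood in 6 genes, of which Hist1h3e, Hist1h3c, Hist1h2bb and Hist1h2bk fell. H4 genes had stems of their own: 7 carried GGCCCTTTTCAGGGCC, 2 carried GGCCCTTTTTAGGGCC, 2 carried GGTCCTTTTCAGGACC, and Hist1h4a carried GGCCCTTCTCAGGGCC. Within H3, Hist1h3f rose and Hist1h3e and Hist1h3c fell with the identical stem-loop. Of the 44 genes with an annotated stem-loop 7 rose and 25 fell, and of the 21 without one 4 rose and 14 fell. In shares, 15.9% rose and 56.8% fell with a stem-loop, and 19.0% rose and 66.7% fell without one. Among all features tested 29.6% rose and 27.0% fell.

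Promoters are shown for the testis genes and, for contrast, for Hist1h3b, the gene with the largest fall. Each is the 250 bases before the RefSeq start on GRCm38.p6, on the strand of the gene, with CCAAT and TATAAA of either strand in capitals. The window of Hist1h2aa also covers the upstream side of Hist1h2ba, which starts at base 23934156 and is transcribed the other way. The windows are chr13:23934187-23934436 (plus strand) for Hist1h2aa, chr13:23695561-23695810 (plus strand) for Hist1h1t and chr13:23752095-23752344 (plus strand) for Hist1h3b.
Hist1h2aa: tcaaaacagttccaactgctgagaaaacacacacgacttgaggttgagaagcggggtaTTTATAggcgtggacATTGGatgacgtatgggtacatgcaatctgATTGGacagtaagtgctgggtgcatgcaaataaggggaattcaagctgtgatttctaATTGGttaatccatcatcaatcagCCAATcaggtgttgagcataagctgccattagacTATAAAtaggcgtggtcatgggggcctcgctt
Hist1h1t: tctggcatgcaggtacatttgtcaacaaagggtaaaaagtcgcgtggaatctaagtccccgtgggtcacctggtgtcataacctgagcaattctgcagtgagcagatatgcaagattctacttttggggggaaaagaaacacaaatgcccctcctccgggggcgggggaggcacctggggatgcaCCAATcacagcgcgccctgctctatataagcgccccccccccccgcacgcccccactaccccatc
Hist1h3b: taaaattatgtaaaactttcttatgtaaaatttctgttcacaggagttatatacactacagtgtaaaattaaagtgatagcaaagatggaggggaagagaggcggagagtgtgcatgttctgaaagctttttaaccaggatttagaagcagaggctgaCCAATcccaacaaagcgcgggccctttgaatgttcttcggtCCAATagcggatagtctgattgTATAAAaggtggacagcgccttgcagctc

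The region between Hist1h2ba and Hist1h2aa held 4 CCAAT words, 2 TATAAA words and 1 ATGCAAAT word. The Hist1h1t window held 1 CCAAT and 1 GGGCGG word and no exact TATAAA. It does hold the similar letters tatataa, which were not searched for. Among the 60 histone genes with a promoter entry in RefSeq, both strands were searched and 50 held CCAAT (83.3%), beside 34.5% of 27025 promoters of all genes in windows of the same length. CCAAT was in 6 of 6 H1, 17 of 17 H2A and 16 of 16 H2B promoters, but in 3 of 12 H4 promoters. ATGCAAAT, the octamer word read on either strand, was in 7 H2A and 6 H2B promoters and in none of the other 3 types (13 of 60, or 21.7%, beside 1.61% of all promoters). TATAAA was in 29 of 60 (48.3%, beside 12.97%), CGTCA in 26 (43.3%, beside 17.9%), GGGCGG in 18 (30.0%, beside 32.9%), and TTTCGCGC or TTTGGCGC in 7 (11.7%, beside 0.673%). Paired H2A and H2B genes share much of their windows, so these counts are not independent, and a matching word is a description of the letters only. No promoter entry was matched for Hist2h2be, Hist2h4, Hist1h3f, Hist1h3a and Hist1h2bc.

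H1 genes encode the linker histones, and the testis form Hist1h1t (ENSMUSG00000036211, chromosome 13, bases 23695814 to 23696725, plus strand, 1 exon) had the largest change of all 65 genes. Hist1h1t had 306.5 and 325.8 FPKM in the differentiation libraries, against 17.75 and 18.53 FPKM in the control libraries, from 4966 and 6050 fragments against 315 and 349. Both differentiation libraries were far above both controls, and the replicates of each group lay close together. The log2 fold change was 4.05 (SE 0.04; limma adjusted p = 6.21e-05). Every 50-base window of the Hist1h1t transcript is unique among GENCODE M21 transcripts, and its coding sequence is 61.9% identical to its nearest member of the type, Hist1h1d. No other annotated transcript shares a whole window with it.

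Of the 5 other H1 genes 3 fell and 2 were not called. Hist1h1a, a somatic linker histone gene and the H1 gene with the highest mean, had 323.9 and 322.9 FPKM in differentiation, against 432.5 and 387.7 FPKM in control. Its groups did not overlap, and the log2 fold change was -0.34 (SE 0.06; limma adjusted p = 0.0129), but the call was lost without differentiation replicate 1 or 2 (limma adjusted p = 0.0833 and 0.0858) and after rescaling to a common sum (limma adjusted p = 0.0809). Hist1h1b, the H1.5 gene, fell to 10.4 and 12.2 FPKM in differentiation, against 29.5 and 26.3 FPKM in control (log2 fold change -1.23, SE 0.10; limma adjusted p = 0.00119). Hist1h1d, the H1.3 gene, had 1.94 and 2.29 FPKM in differentiation, against 4.50 and 4.06 FPKM in control (log2 fold change -0.76, limma adjusted p = 0.00519). Hist1h1c had 53.6 and 63.9 FPKM in differentiation, against 63.9 and 60.8 FPKM in control. Its groups overlapped (log2 fold change -0.09, limma adjusted p = 0.461), and the sign turned after rescaling to a common sum (0.01) and without differentiation replicate 1 (0.04).

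The 6 H1 genes of the clusters summed to 711 and 744 FPKM in differentiation, against 566 and 513 FPKM in control. Linker histone genes outside the clusters are not in this sum. Hist1h1t made up 43.1% and 43.8% of the sum in differentiation and 3.13% and 3.61% in control. Without Hist1h1t the sum was 411 ± 9.05 FPKM in differentiation and 522 ± 38.0 FPKM in control (SD, n = 2 each). These sums are descriptions without a test.

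**Figure D2:**
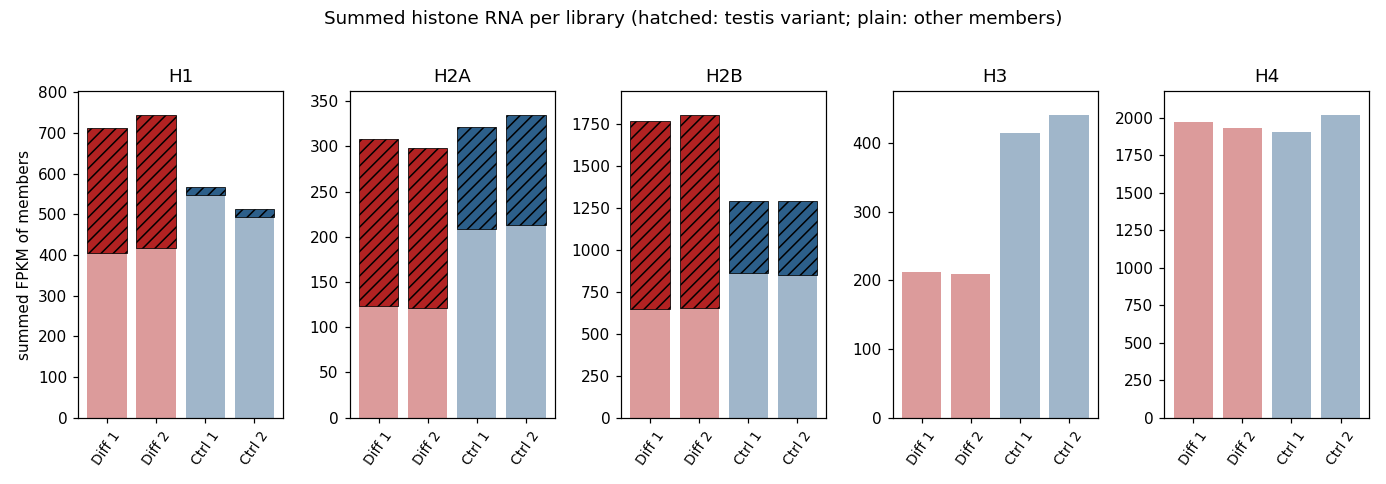
Summed FPKM of the members of each histone type in each library (Diff, differentiation, in red; Ctrl, control, in blue; bars start at 0, and each panel has its own scale), with the testis variant of the type hatched and all other members plain. The hatched part of H1 is 43.1% and 43.8% in differentiation, against 3.13% and 3.61% in control, and the H3 bars are 213 and 210 FPKM, against 415 and 440 FPKM.

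The testis H2B gene Hist1h2ba (ENSMUSG00000050799, chromosome 13, bases 23933773 to 23934156, minus strand) and the testis H2A gene Hist1h2aa (ENSMUSG00000060081, chromosome 13, bases 23934462 to 23934851, plus strand) form a divergent pair apart from the other genes of the cluster. Hist1h2ba, the highest of the 65 genes, had 1122 and 1145 FPKM in differentiation, against 431 and 444 FPKM in control. Both differentiation libraries were far above both controls, and the log2 fold change was 1.37 (SE 0.04; limma adjusted p = 0.000177). Hist1h2aa had 185 and 177 FPKM in differentiation, against 114 and 121 FPKM in control. Its groups did not overlap, and the log2 fold change was 0.62 (SE 0.05; limma adjusted p = 0.00101). Both genes were the highest of their type in both groups. Of the 50-base windows, 61.8% were unique in Hist1h2ba and 76.2% in Hist1h2aa. The coding sequence of Hist1h2ba is 88.7% identical to its nearest H2B gene, Hist1h2bj, and that of Hist1h2aa 84.6% identical to its nearest H2A gene, Hist1h2ae.

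Among the H2B genes of the 65, Hist1h2ba made up 63.4% and 63.7% of the summed FPKM in differentiation and 33.4% and 34.3% in control. Among the H2A genes of the 65, Hist1h2aa made up 60.0% and 59.5% in differentiation and 35.3% and 36.2% in control. These shares leave out H2A genes outside the clusters. Of those, H2afx alone had 326 and 339 FPKM in differentiation, against 266 and 271 FPKM in control. The pseudogene Hist1h2al, described at the end, is left out as well. The H2B genes without Hist1h2ba summed to 650 ± 4.81 FPKM in differentiation and 854 ± 8.34 FPKM in control, and the H2A genes without Hist1h2aa to 122 ± 1.70 FPKM in differentiation and 211 ± 3.61 FPKM in control (SD, n = 2 each). Over all 65 genes the 3 testis variants took 32.5% and 33.1% of the summed histone FPKM in differentiation and 12.5% and 12.7% in control. The 65 genes together accounted for 0.298% and 0.299% of all fragments in differentiation and 0.278% and 0.279% in control.

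Of the 17 H2A genes 9 fell, 3 rose and 5 were not called, with a median log2 fold change of -0.68. The shares were 52.9% lower and 17.6% higher, beside 27.0% and 29.6% among all features tested. Of the 4 H2A genes with at least 50% unique 50-base windows 1 fell and 2 rose, with a median of 0.19. Of the 13 with under 50%, 8 fell and 1 rose, with a median of -0.69. The second-highest, Hist1h2ak, had 50.1 and 45.5 FPKM in differentiation, against 95.4 and 90.0 FPKM in control, with no overlap (log2 fold change -0.94, SE 0.06; limma adjusted p = 7.51e-04). The largest falls were in 2 low genes. Hist1h2af had 1.41 and 1.85 FPKM in differentiation, against 4.38 and 6.55 FPKM in control, from 10 and 15 fragments against 34 and 54 (log2 fold change -1.28; limma adjusted p = 0.00827), and its call was lost without differentiation replicate 1 (limma adjusted p = 0.0657). Hist1h2an had 4.87 and 4.25 FPKM in differentiation, against 11.5 and 11.5 FPKM in control (log2 fold change -1.17; limma adjusted p = 6.78e-04). Only 6.0% of the 50-base windows of Hist1h2af and 14.2% of those of Hist1h2an were unique, so both values are uncertain as those of single genes. Hist2h2ac had 13.4 and 9.35 FPKM in differentiation, against 17.3 and 18.9 FPKM in control, and had a log2 fold change of -0.64 (adjusted p = 0.0376 by limma). That call did not hold without control replicate 1 or 2 (adjusted p = 0.0922 and 0.132 by limma), and the log2 fold change was -0.40 without differentiation replicate 2.

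Besides Hist1h2aa, 2 H2A genes outside the Hist1 cluster were called higher. Hist2h2ab had 6.46 and 8.74 FPKM in differentiation, against 2.20 and 4.36 FPKM in control (log2 fold change 1.04, SE 0.30; limma adjusted p = 0.0428). Its groups did not overlap, but the replicates differed and the call was lost under 6 of 13 alternatives, among them leaving out control replicate 1 or either differentiation replicate (limma adjusted p = 0.0734, 0.113 and 0.203). Without control replicate 1 its log2 fold change was 0.67. Hist3h2a had 3.07 and 2.86 FPKM in differentiation, against 1.87 and 1.78 FPKM in control (log2 fold change 0.49, SE 0.09; limma adjusted p = 0.0116), and leaving out any 1 library raised its limma adjusted p to between 0.0515 and 0.0657. Hist3h2a shares 708 of its 2146 exonic bases with Trim17 on the same strand, and Hist2h2ab shares 303 of 444 with the antisense gene Gm15444. Whether the counting used strand is not stated in the labels or the submitters' processing notes. The number of higher H2A genes was 1 instead of 3 without control replicate 1 or without differentiation replicate 1.

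Of the 18 H2B genes 13 fell, 3 rose and 2 were not called, with a median log2 fold change of -0.50. The shares were 72.2% lower and 16.7% higher, beside 27.0% and 29.6% among all features tested. Of the 10 H2B genes with at least 50% unique 50-base windows 6 fell and 3 rose, with a median of -0.25. Of the 8 with under 50%, 7 fell and 0 rose, with a median of -0.56. The highest after Hist1h2ba, Hist1h2bm, had 205 and 207 FPKM in differentiation, against 242 and 228 FPKM in control, and the log2 fold change was -0.19 (limma adjusted p = 0.0197). The call of Hist1h2bm was lost under 5 of 13 alternatives, with a limma adjusted p of 0.0695 without control replicate 1 and 0.104 and 0.0956 without differentiation replicate 1 and 2. Hist1h2bl had 100.4 and 99.2 FPKM in differentiation, against 149 and 154 FPKM in control, with no overlap (log2 fold change -0.60; limma adjusted p = 4.03e-04). The largest falls were in Hist2h2bb, with 7.09 and 6.57 FPKM in differentiation, against 17.7 and 18.1 FPKM in control (log2 fold change -1.27; limma adjusted p = 2.56e-04), and in Hist1h2bn, with 17.9 and 18.6 FPKM in differentiation, against 31.8 and 40.2 FPKM in control (log2 fold change -0.94; limma adjusted p = 0.00435). No 50-base window of Hist2h2bb is unique. The antisense gene Gm20628 covers all 381 of its exonic bases, and the lincRNA gene Gm42743 shares 226 of them on the same strand, so the value of Hist2h2bb is uncertain as that of a single gene.

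Beside Hist1h2ba, the H2B genes that rose were Hist2h2be and Hist1h2bp. Hist2h2be (ENSMUSG00000068854, chromosome 3, bases 96221119 to 96223738, plus strand), which encodes a replacement-type H2B known from the mouse olfactory epithelium, had 4.02 and 3.95 FPKM in differentiation, against 0.628 and 0.610 FPKM in control. The differentiation libraries held 187 and 211 fragments and the controls 32 and 33, and the groups did not overlap. The mean FPKM was 6.44-fold higher, and the log2 fold change on the FPKM + 1 scale was 1.62 (SE 0.09; limma adjusted p = 4.96e-04), beside 2.66 in the limma-voom fit on fragments and 2.51 with a pseudocount of 0.1. All of its 50-base windows are unique. Hist1h2bp had 29.2 and 32.8 FPKM in differentiation, against 20.8 and 22.0 FPKM in control (log2 fold change 0.51, SE 0.07; limma adjusted p = 0.00528). The transcripts of Hist1h2bp hold 55.9% unique windows.

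Of the 11 H3 genes 10 fell and 1 rose, with a median log2 fold change of -1.13. The shares were 90.9% lower and 9.09% higher, beside 27.0% and 29.6% among all features tested. Hist1h3b had 5.81 and 6.34 FPKM in differentiation, against 24.5 and 29.0 FPKM in control. Both controls were well above both differentiation libraries, and the log2 fold change was -1.97 (SE 0.10; limma adjusted p = 3.85e-04), the largest fall of the 65 genes. Hist1h3h, the highest H3 gene, had 59.8 and 49.0 FPKM in differentiation, against 149 and 154.5 FPKM in control (log2 fold change -1.47, SE 0.10; limma adjusted p = 9.20e-04). Hist1h3e had 48.1 and 45.6 FPKM in differentiation, against 64.6 and 61.0 FPKM in control (log2 fold change -0.41, SE 0.05; limma adjusted p = 0.00298). Hist1h3a had 33.9 and 39.3 FPKM in differentiation, against 52.8 and 67.6 FPKM in control, and its fall of 0.70 on the log2 scale (adjusted p = 0.0172 by limma) was not called without differentiation replicate 1 or 2 (limma adjusted p = 0.107 and 0.0662). The 11 H3 genes of the clusters summed to 211 ± 2.40 FPKM in differentiation and 428 ± 17.7 FPKM in control (SD, n = 2 each), a ratio of 0.494. H3 genes outside the clusters are not in this sum. Of those, H3f3b had 191 and 189 FPKM in differentiation, against 130 and 132 FPKM in control, and was called higher. H3f3a, at 49.5 and 47.3 FPKM against 44.5 and 44.3 FPKM, was also called higher. Cenpa, at 3.495 and 3.981 FPKM against 8.155 and 8.933 FPKM, was called lower.

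The H3 gene that rose was Hist1h3f (ENSMUSG00000100210, chromosome 13, bases 23544052 to 23545312, plus strand). It had 14.4 and 15.0 FPKM in differentiation, against 5.83 and 4.76 FPKM in control, from 322 and 385 fragments against 143 and 124. Both differentiation libraries were above both controls, and the log2 fold change was 1.32 (SE 0.10; limma adjusted p = 0.00103). H3 coding sequences are nearly identical, at 98.8% between Hist1h3f and Hist1h3e, and 50.7% of the 50-base windows of Hist1h3f were unique. The 7 H3 genes with under 50% unique windows all fell, and their reads may belong to another copy. Among these 7 are Hist1h3h (6.08% unique), Hist1h3e (26.6%) and Hist1h3b (39.6%). Of the 4 with at least 50%, 3 fell and 1 rose.

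Of the 13 H4 genes 4 fell (30.8%), 3 rose (23.1%) and 6 were not called, with a median log2 fold change of -0.11. Both shares lie near those of all features tested, 27.0% lower and 29.6% higher. The count of lower H4 genes was 7 after median centring and in a limma-voom fit on fragments. Summed H4 RNA was 1948 ± 29.0 FPKM in differentiation and 1958 ± 79.2 FPKM in control (SD, n = 2 each), a ratio of 0.995. Hist1h4n, the highest, had 391 and 337 FPKM in differentiation, against 409 and 450 FPKM in control. It was not called (log2 fold change -0.24; limma adjusted p = 0.0946), though it was after median centring (limma adjusted p = 0.0451) and in the limma-voom fit (limma adjusted p = 2.98e-04). Its log2 fold change was -0.13 without differentiation replicate 2 and -0.14 after rescaling to a common sum. Hist1h4k had 348 and 359 FPKM in differentiation, against 354 and 409 FPKM in control, with overlapping groups (log2 fold change -0.11; limma adjusted p = 0.320), and its log2 fold change without control replicate 1 was -0.21, against -0.0009 without control replicate 2.

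The largest H4 fall was in Hist2h4 (ENSMUSG00000091405, chromosome 3, bases 96261682 to 96263311, minus strand), with 18.8 and 16.8 FPKM in differentiation, against 63.0 and 61.3 FPKM in control. The 2 groups were well apart (log2 fold change -1.75, SE 0.06; limma adjusted p = 1.99e-04), and 99.0% of the windows of Hist2h4 are unique. Hist1h4b had 32.7 and 41.1 FPKM in differentiation, against 61.4 and 58.9 FPKM in control (log2 fold change -0.70; limma adjusted p = 0.00923). Only 24.1% of the 50-base windows of Hist1h4b were unique. The H4 genes that rose were Hist1h4c, Hist1h4h and Hist1h4f. Hist1h4c had 392 and 351 FPKM in differentiation, against 243 and 255 FPKM in control (log2 fold change 0.57, SE 0.07; limma adjusted p = 0.00347). Hist1h4h had 279 and 304 FPKM in differentiation, against 200.0 and 215 FPKM in control (log2 fold change 0.49; limma adjusted p = 0.00457). Hist1h4f had 49.9 and 53.0 FPKM in differentiation, against 37.5 and 42.6 FPKM in control (log2 fold change 0.36; limma adjusted p = 0.0175), and was not called without differentiation replicate 1 or 2 (limma adjusted p = 0.0736 and 0.110).

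**Figure D3:**
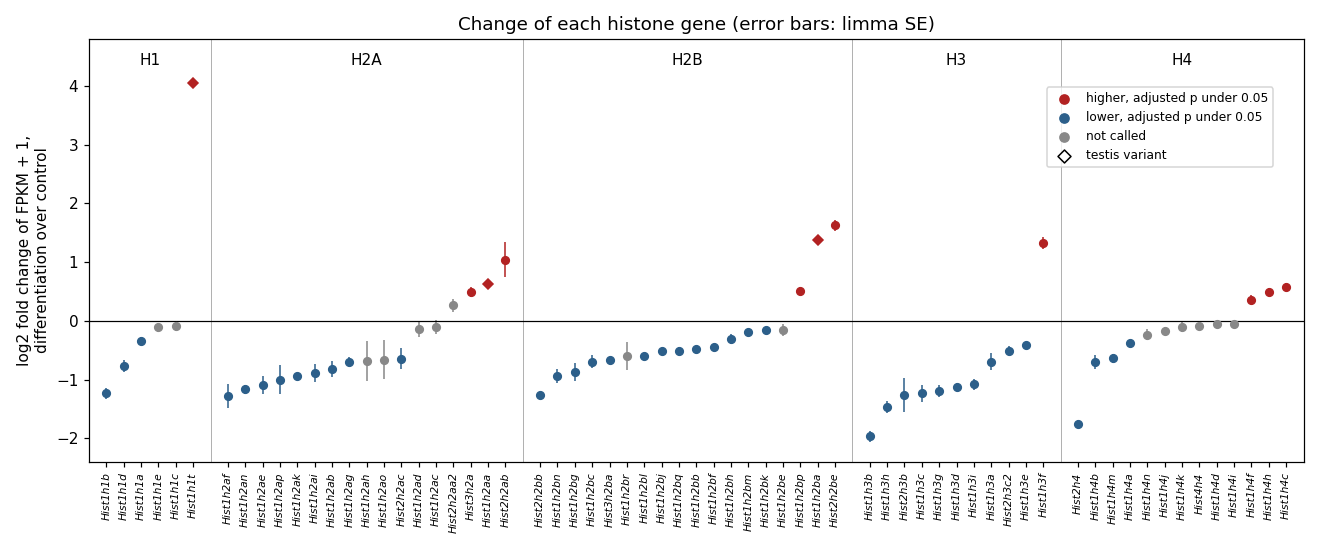
Log2 fold change of FPKM + 1, differentiation over control, of each of the 65 histone genes with the limma SE as error bars, ordered within each type (red, higher; blue, lower; grey, not called; diamonds, testis variants). In H3 10 of 11 genes lie below 0, whereas H4 genes lie around a median of -0.11, and Hist1h1t stands at 4.05.

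Along chromosome 13 the genes fall into 4 blocks, separated by gaps of over 100 kb. The counts below stand beside shares of 27.0% lower and 29.6% higher among all features tested. In the block from base 21715763 to 21837530, 12 of 18 genes fell and 1, Hist1h2bp, rose. In the block from 22035164 to 22043676, 3 of 5 fell and the others were not called. In the block from 23531050 to 23764406, 18 of 29 fell and 5 rose, and in the last block, from 23933773 to 23934851, both genes, the testis pair, rose. The 5 that rose in the block of 29 genes were Hist1h4h at its end, the neighbours Hist1h3f and Hist1h4f, and the neighbours Hist1h1t and Hist1h4c. Of the 8 Hist2 genes 5 fell and 2 rose, and Hist4h4 was not called, with 58.5 and 58.4 FPKM in differentiation, against 63.0 and 61.4 FPKM in control (limma adjusted p = 0.0533).

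**Figure D4:**
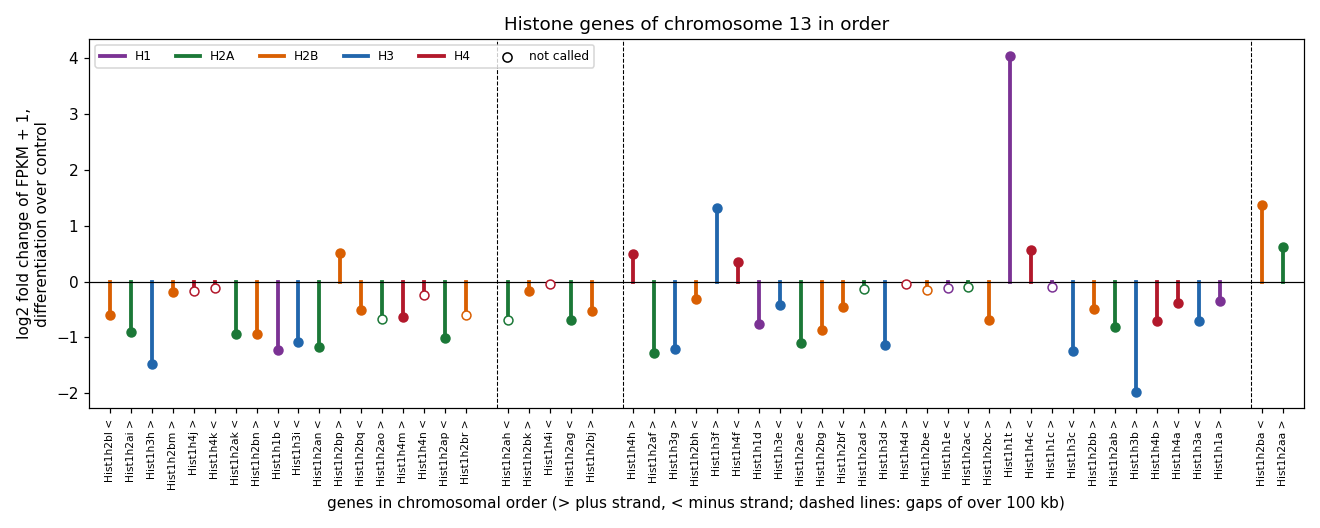
Log2 fold change of FPKM + 1, differentiation over control, of the 54 histone genes of chromosome 13 in chromosomal order, coloured by type, with open circles for genes not called and dashed lines at gaps of over 100 kb. Hist1h2bp, at 0.51, stands between neighbours that fell, while Hist1h3f and Hist1h4f, Hist1h1t and Hist1h4c, and the testis pair Hist1h2ba and Hist1h2aa on the right, at 1.37 and 0.62, stand side by side.

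H2A and H2B genes often lie head to head, with their starts close together. Of 12 such pairs (annotated starts at most 600 bases apart) 4 had both genes lower and 1, the testis pair, both higher. In 5 pairs 1 gene was lower and the other not called. In the other 2 pairs the genes were called in opposite directions. Among all single features tested 27.0% were lower and 29.6% higher. Hist2h2be rose by 1.62 on the log2 scale while Hist2h2ac, which starts across 238 bases, fell by 0.64, and Hist1h2bp rose by 0.51 while Hist1h2an, across 242 bases, fell by 1.17. As given above, the call of Hist2h2ac was lost without either control replicate, and its log2 fold change was -0.40 without differentiation replicate 2. The overlap of reads between near-identical copies also bears on Hist1h2an, of whose windows 14.2% were unique.

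**Figure D5:**
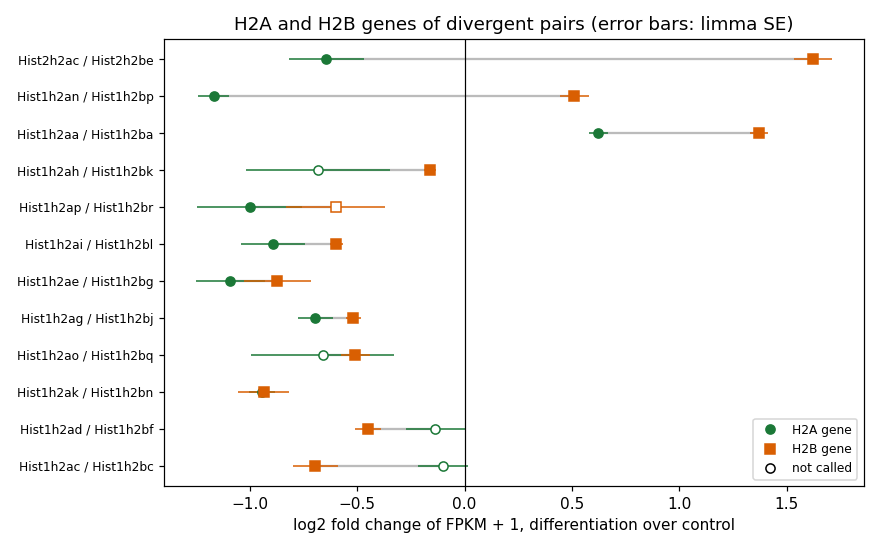
Log2 fold change of FPKM + 1, differentiation over control, of the H2A gene (green circle) and the H2B gene (orange square) of each of 12 divergent pairs, with the limma SE as error bars and open symbols for genes not called. The pair Hist2h2ac and Hist2h2be spans -0.64 to 1.62, the pair Hist1h2an and Hist1h2bp spans -1.17 to 0.51, and the testis pair has both genes above 0.

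How far the calls follow sequence overlap between copies was set out as counts. Of the 33 genes with at least 50% unique 50-base windows 15 fell, 10 rose and 8 were not called. In shares, 45.5% of the 33 were lower and 30.3% higher, beside 27.0% lower and 29.6% higher among all features tested. Their share of higher genes was thus near that of all features tested, and their share of lower genes was under the 60.0% of all 65. Their median log2 fold change was -0.15, beside -0.51 for all 65. Of the 32 genes with under 50% 24 fell, 1, Hist2h2ab, rose, and 7 were not called. The division of reads among near-identical copies by the authors is not stated in the labels or notes. The values of the 32 genes are therefore uncertain as values of single genes. Among the 32 are Hist1h4n (14.4% unique), Hist1h4k (28.5%), Hist1h2ak (43.0%), Hist1h2bl (17.2%) and Hist1h2bn (13.6%). The unique share depends on window length. With windows of 100 bases it was 19.3% in Hist1h4n, 35.7% in Hist1h4k, 84.0% in Hist1h2ak, 37.9% in Hist1h2bl and 47.9% in Hist1h2bn. In 3 pairs, Hist1h2bq with Hist1h2br, Hist1h2ao with Hist1h2ap and Hist1h4m with Hist1h4n, the coding sequences are identical. Annotated length also varied: 21 genes have over 300 bases annotated after the coding end, up to 4934 in Hist1h1d, and a long annotation lowers FPKM for RNA that ends at the stem-loop. Of those 21 genes 8 fell, 4 rose (Hist2h2be, Hist3h2a, Hist1h3f and Hist1h4c) and 9 were not called, while of the other 44 genes 31 fell, 7 rose and 6 were not called.

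Of 38 DNA replication and S phase genes 28 fell and 4 rose, with a median log2 fold change of -0.48. Among all features tested 27.0% fell and 29.6% rose, with a median of 0.01. A link between these genes and the histone genes was not tested. The helicase genes Mcm4 and Mcm2 and the licensing factor gene Cdt1 had the smallest p-values. Mcm4 had 17.0 and 16.6 FPKM in differentiation, against 38.0 and 37.4 FPKM in control (log2 fold change -1.12; limma adjusted p = 1.45e-04). Mcm2 had 12.2 and 11.7 FPKM in differentiation, against 33.0 and 31.4 FPKM in control (log2 fold change -1.36; limma adjusted p = 1.79e-04). Cdt1 had 8.49 and 8.20 FPKM in differentiation, against 21.7 and 21.7 FPKM in control (log2 fold change -1.28; limma adjusted p = 1.59e-04). In all 3 the groups were far apart.

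Of 19 tested factors of histone mRNA transcription, 3′ end processing and turnover, 8 rose and 5 fell, with a median of 0.02. The shares over all features tested were 29.6% higher and 27.0% lower. Srrt, a partner of the nuclear cap-binding complex, had 48.9 and 51.3 FPKM in differentiation, against 27.6 and 27.3 FPKM in control (log2 fold change 0.85; limma adjusted p = 2.74e-04). The cap-binding subunit gene Ncbp2 fell by 0.48 on the log2 scale (adjusted p = 0.00118 by limma), and the helicase gene Upf1, which takes part in histone mRNA decay, rose by 0.31 (limma adjusted p = 0.00154). Slbp, the gene of the protein that binds the stem-loop, was named after its values were seen: it had 18.1 and 18.1 FPKM in differentiation, against 15.8 and 16.3 FPKM in control (log2 fold change 0.17; limma adjusted p = 0.0174). Its change was small and in the opposite direction to most histone genes.

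Of 21 histone chaperone and supply genes 10 fell and 5 rose, with a median of -0.13, beside 27.0% lower and 29.6% higher among all features tested. Npm1, the nucleolar histone chaperone nucleophosmin, fell by 0.65 on the log2 scale and Ssrp1, a subunit of the FACT complex, by 0.56 (limma adjusted p = 4.39e-04 for both). Asf1b, a chaperone of H3 and H4, rose to 32.7 and 34.5 FPKM in differentiation, against 20.6 and 20.2 FPKM in control (log2 fold change 0.69; limma adjusted p = 5.20e-04). Of 11 replacement histone genes outside the clusters, whose mRNAs are mostly polyadenylated, 6 rose and 3 fell, with a median of 0.12. The linker histone gene H1fx had 47.0 and 49.6 FPKM in differentiation, against 23.2 and 22.8 FPKM in control (log2 fold change 1.04; limma adjusted p = 2.15e-04). H2afz, the H2A.Z gene, rose by 0.60 on the log2 scale (adjusted p = 2.86e-04 by limma), and H2afy2, a macroH2A gene, fell by 1.73 (limma adjusted p = 4.54e-04).

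RNA of spermatid chromatin proteins (spermatid histone variants, transition proteins and protamines) was low in both groups. Of 8 such genes the table lists 6, and 2 had a mean of at least 0.5 FPKM. Tnp2, a transition protein gene, had 1.54 and 1.52 FPKM in differentiation, against 0.468 and 0.176 FPKM in control, and the protamine gene Prm1 had 0.960 and 0.942 FPKM in differentiation, against 0.329 and 0.207 FPKM in control. Both reached that mean through the differentiation libraries alone, so their values are given without a test. The 6 genes together summed to 4.20 and 3.58 FPKM in differentiation, against 1.80 and 1.05 FPKM in control.

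Markers of several cell types also differed between the groups, in both directions. The shares over all features tested were 27.0% lower and 29.6% higher. Of 15 spermatocyte markers 12 had a mean of at least 0.5 FPKM in both groups, and all 12 rose. The other 3, Ccna1, Tdrd6 and Pgk2, reached that mean through differentiation alone and are not counted. The summed level of the 15 was 1296 and 1316 FPKM in differentiation, against 214 and 217 FPKM in control. Of 14 markers of undifferentiated spermatogonia 11 fell and 1 rose (summed 51.7 and 51.5 FPKM in differentiation, against 153 and 156 FPKM in control), and of 8 markers of differentiating spermatogonia 6 fell and 1 rose (223 and 226 FPKM, against 422 and 416 FPKM). Of 13 fibroblast and peritubular markers 12 had that mean in both groups, of which 11 fell, and Lum reached it through control alone (summed 162 and 151 FPKM in differentiation, against 401 and 408 FPKM in control), and the 10 macrophage markers summed to 16.2 and 16.2 FPKM in differentiation, against 70.6 and 68.0 FPKM in control. Of the 9 tested macrophage markers 5 had a mean of at least 0.5 FPKM in both groups, and all 5 fell, while the other 4 reached the threshold through control alone and are not counted. Sertoli markers went both ways, with 3 of 7 higher and 3 lower (134 and 124 FPKM in differentiation, against 121 and 123 FPKM in control), and of 5 tested Leydig markers 3 fell and 1 rose (25.1 and 24.4 FPKM, against 42.9 and 44.2 FPKM). No marker of these lists was at 0 in both libraries of a group. Fewer cells of a type and less RNA per cell cannot be told apart in such bulk samples, and the part of these cells in the histone changes was not tested.

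The authors' deposited table, which was made from the same libraries and is no independent support, called 35 of the 65 genes lower and 11 higher at an adjusted p under 0.05. All 46 were also called here in the same direction. Its log2 fold change was 4.12 for Hist1h1t, 2.69 for Hist2h2be, 1.37 for Hist1h2ba and -2.14 for Hist1h3b.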

How the data were processed

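Libraries were made from total RNA depleted of ribosomal RNA, per the labels' protocols. The submitters' processing notes name HISAT2 and the build GRCm38. Annotation, counting tool, strand use and the handling of multi-mapping reads are not given in the sources. The authors deposited FPKM per feature and library, and beside it their own log2 fold change, p-value and adjusted p-value per feature. The test behind the deposited p-values is not named.

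FPKM values were multiplied by merged exonic lengths of GENCODE M21 (31536 of 31600 identifiers matched) and a scale per library at which low values became whole fragments. Between 96.2% and 96.3% of features under 300 fragments were whole within 0.05. The scales were 17769660 and 20364180 fragments for differentiation and 19459320 and 20646880 for control. Values of log2(FPKM + 1) were fitted with limma 3.58.1 (R 4.3.3), two-sided, with an intensity trend and group as the only term. The fit covered 23138 features whose mean reached 0.5 FPKM and had 2 residual and 2.14 prior degrees of freedom. Fold changes on this scale understate changes of low genes. Fragment counts behind a value do not enter this fit, and they do enter the limma-voom alternative. The fitting code was tested on simulated data.

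Windows of 50 and of 100 bases were compared with all GENCODE M21 transcripts on both strands. All 65 genes were matched to RefSeq by synonym and position, and 60 had a promoter entry. Python 3.11.15, pandas 2.3.3, biopython 1.88 and matplotlib 3.10.9 were used.

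The genes, the lists and the tests were chosen with earlier results of these data known. The text names the testis variants, the 3 highest genes of each type, up to 2 with the largest called change in each direction, those called against most of their type, and the 3 list members with the smallest p. Other genes are named as counts of 5 or fewer, as parts of a pair or shared sequence, or as genes outside a sum, after their values were seen. Symplk of the list of processing factors was not matched in the table and not analysed here. Circular RNA was not analysed here.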

Additional observations from a re-analysis of the deposited data

How the results depend on the processing

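Across 13 alternatives the count of higher histone genes ranged from 8 to 12 beside 11, and that of lower ones from 30 to 44 beside 39. Of the 65 genes 8 were higher and 27 lower under every alternative, and no gene was higher under one and lower under another. Leaving out 1 library gave 8 to 10 higher and 30 to 37 lower histone genes, and 5094 to 5583 higher and 4344 to 4634 lower features in all. Rescaling to a common sum moved the median log2 fold change of all features to 0.11, beside 0.01, and quantile normalization to -0.09. Of the 28 named genes that were called 20 were called under every alternative and 8 lost the call under at least 1. Hist1h1c, which was not called, turned sign after rescaling to a common sum (0.0114), and its values without 1 library ranged from -0.213 to 0.036. The call of Hist1h2bm was lost after that rescaling, with a log2 fold change of -0.09, beside -0.19.

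Replicate numbers are shared between the groups, but the deviations of same-numbered libraries correlated at -4.08e-04 over 23138 features, with only 2 pairs, so the numbers were not taken as a pairing. With a replicate block 11 histone genes were higher and 41 lower. With fewer than 100 fragments in a library, as in Hist1h2af, Hist2h2ab and Hist1h2ao, counting error limits single values.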

Other observations

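The deposited table also holds 3 rows with a matching symbol that are not protein-coding and so stand outside the 65 genes. One of them is the processed pseudogene Hist1h2al (ENSMUSG00000091383, chromosome 13, bases 51202727 to 51203065, minus strand, GRCm38), which is described after its values were seen. Hist1h2al had 786 and 798 FPKM in differentiation, against 617 and 612 FPKM in control, with means of 792 ± 8.55 and 614 ± 3.48 FPKM (SD, n = 2 each), and it rose by 0.37 on the log2 scale with an SE of 0.04 (adjusted p = 0.00303 by limma). In each library this exceeded the sum of the 17 H2A genes among the 65, 308 and 298 FPKM in differentiation, against 322 and 334 FPKM in control. The row rests on 4735 and 5510 fragments in differentiation, against 4068 and 4282 in control. Of its 50-base windows 32.4% were unique among GENCODE M21 transcripts, and of its 100-base windows 80.8%. The pseudogenes Hist1h2aj and Hist3h2bb-ps were not called, with log2 fold changes of -0.53 and -0.19 (limma adjusted p = 0.0634 and 0.170).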
